A study of Mus musculus with 32 samples.

Results

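The comparison is the change in gene expression after knockdown of Pparg minus the change after knockdown of Gyk, each measured against its own controls in cultured mouse cells. It used the 16 arrays labelled as in vitro, of 32 arrays in the series, and covered every named gene seen above background, 13124 genes. The 4 groups held 4 arrays each and were the Pparg control, Pparg knockdown, Gyk control and Gyk knockdown cultures. Each array measured total RNA with 1 dye on a mouse whole-genome Agilent design.

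All 4 groups carry the strain label C57Bl/6, the cell type label preadipocytes and the treatment label RoomTemperature. The labels do not name the knockdown agent, the vector of the controls, the clone or the age of the cultures. They also do not say whether the 4 arrays of a group came from separate cultures, so each p-value is set against array-to-array spread that may be technical. Each experiment had its own control cultures and its own pair of slides, so the difference sets a change within one experiment against a change within the other. Levels between the experiments were not compared, because slide and experiment cannot be told apart.

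PPARG is the nuclear receptor that drives fat cell formation and then keeps the genes for lipid storage and, in brown fat cells, heat production active. It binds DNA with an RXR partner. Glycerol kinase, named Gyk in the sample labels and Gk on the array, turns glycerol into glycerol 3-phosphate, the backbone on which fatty acids are put back into triglyceride. White fat has little of the enzyme and brown fat has much more.

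The cultures carried the marker profile of fat cells. All 5 mature adipocyte markers (Adipoq, Plin1, Fabp4, Cidec, Lpl) and all 5 preadipocyte markers (Pdgfra, Pdgfrb, Ly6a, Dlk1, Cd34) were well above background on all 16 arrays. Summed on the linear scale, as multiples of each array's 75th percentile, the mature adipocyte markers reached 933 to 1117 in Pparg controls, 482 to 589 in Pparg knockdowns, 1027 to 1287 in Gyk controls and 1034 to 1323 in Gyk knockdowns. The preadipocyte markers summed to 3.23 to 3.59, 5.81 to 6.27, 4.51 to 5.82 and 4.82 to 5.55 in the same order. Markers of other cells were seen in part. Of the 5 macrophage markers on the array, Csf1r was well above background on all 16 arrays, Adgre1 on 3 arrays of each group, Ptprc on 1, 1, 1 and 2 arrays of the groups in the same order, and Lyz2 and Mrc1 on none. The endothelial marker Kdr, the lymphocyte marker Cd3e and the skeletal muscle marker Acta1 were well above background on all 16 arrays, while the other 4 skeletal muscle markers (Ckm, Myh4, Myod1, Myog) were on none.

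The level of a gene is given here as log2 of its processed signal minus log2 of the array's 75th percentile, so a difference of 1 is a 2-fold change. A gene was called where limma gave a Benjamini-Hochberg adjusted p under 0.05 over all genes tested. The 75th percentile ranged from 589 to 806 on the Pparg arrays and from 141 to 424 on the Gyk arrays. The lowest values belonged to Gyk knockdown arrays 3 and 4, at 141 and 246. The median residual SD of a gene was 0.17 on the Pparg arrays and 0.25 on the Gyk arrays, and it was larger on the Gyk arrays for 71.5% of genes.

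The targeted genes behaved differently in the 2 experiments. Pparg fell under its own knockdown and its change under Gyk knockdown was not called, while Gk fell under both. The level of Pparg read 5.99, 5.97, 6.29 and 6.34 on the control arrays of its own experiment and 4.10, 4.10, 4.38 and 4.36 on the knockdown arrays. In the Gyk experiment the Pparg controls read 6.49, 6.32, 6.32 and 6.31 and the knockdowns 6.04, 6.15, 6.22 and 6.33. The groups were separate in the first experiment and overlapped in the second. The changes were -1.91 (adjusted p = 1.03e-05) and -0.18 (adjusted p = 0.336), and their difference was -1.73 (SE 0.16, adjusted p = 5.93e-06).

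Gk read 0.76, 0.85, 0.99 and 0.93 on the Pparg controls and -0.63, -0.70, -0.30 and -0.61 on the Pparg knockdowns. In the Gyk experiment it read 0.40, 0.38, 0.22 and 0.39 on the controls and -2.61, -3.0, -1.40 and -1.19 on the knockdowns. Every knockdown array in both experiments was below every control array of its experiment. The Gyk knockdown arrays fell into a lower pair, arrays 1 and 2 on one slide, and a higher pair, arrays 3 and 4 on the other. Gk changed by -1.44 under Pparg knockdown (adjusted p = 2.03e-05), a 2.72-fold fall, and by -2.40 under Gyk knockdown (adjusted p = 0.0139), a 5.26-fold fall. The difference of 0.95 (SE 0.43, 95% interval 0.04 to 1.87, adjusted p = 0.177) was not called. Without Gyk knockdown arrays 3 and 4 it was 1.71 (adjusted p = 3.29e-05), and without array 4 alone it was 1.24 (adjusted p = 0.0407). Leaving out the slide of Gyk arrays 1 and 2, controls and knockdowns, gave 0.15 (adjusted p = 0.591).

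Ucp1, the uncoupling protein that lets brown fat mitochondria make heat, fell in both experiments and fell further after Pparg knockdown. Its level was 6.34, 6.35, 6.69 and 6.67 on the Pparg controls and 3.59, 3.72, 3.82 and 3.57 on the knockdowns. In the Gyk experiment the 2 controls that could be read were at 7.53 and 7.25, since the spots of the other 2 were marked as outliers by the scanner software, and the 4 knockdowns were at 6.10, 6.53, 6.63 and 6.46. Neither experiment had overlapping groups. The changes were -2.84 and -0.96, and the difference was -1.88 (SE 0.22, adjusted p = 9.25e-05), with 2 of the 16 arrays dropped from the fit.

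An exact two-sided permutation test of the same-numbered knockdown minus control differences gave p = 0.0286 for Pparg and for Gk, the smallest that 4 against 4 allows. For Ucp1, with 4 against 2, the exact permutation p was 0.0667, also the smallest possible. Adjusted over these 3 tests the values were 0.0429, 0.0429 and 0.0667. The test takes array numbers as pairs, which same-numbered Gyk arrays did not bear out (deviations correlated at 0.06 to 0.14). In the Pparg experiment deviations of same-numbered arrays correlated at 0.67 to 0.72. Those of arrays of the same slide and another number correlated nearly as much, at 0.66 to 0.69.

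**Figure D1:**
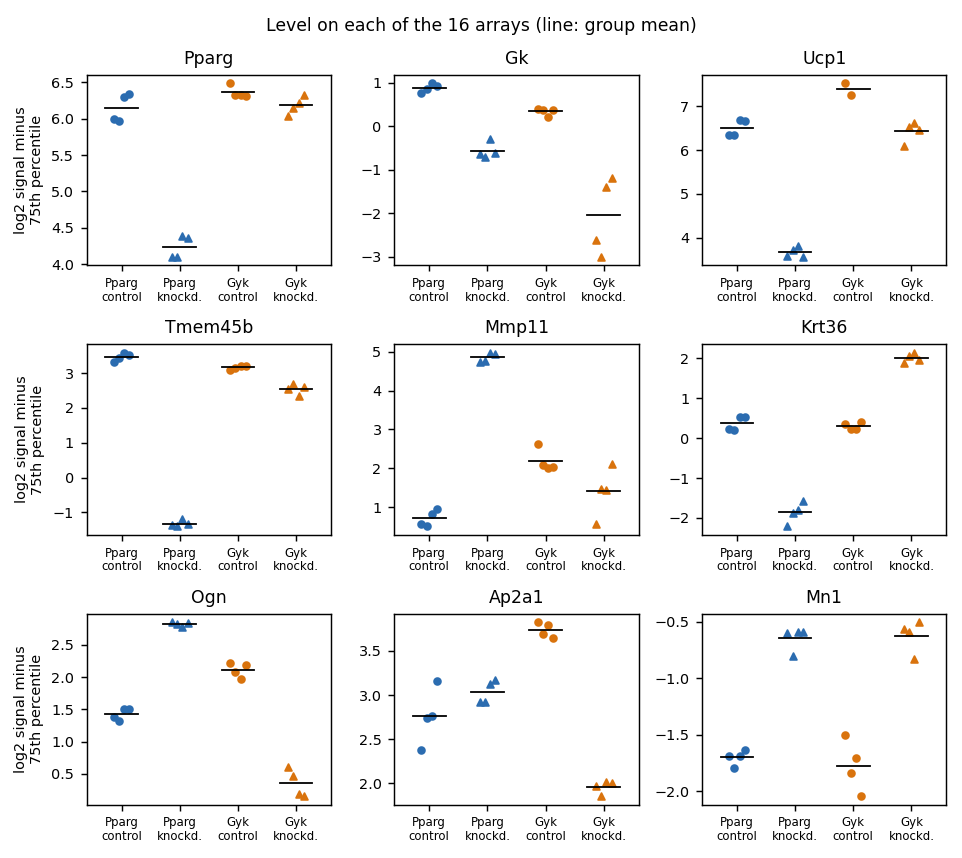
Level of 9 genes on each of the 16 arrays, as log2 signal minus the array's 75th percentile, with circles for controls, triangles for knockdowns, blue for the Pparg experiment, orange for the Gyk experiment and a line at each group mean. Gk drops in both experiments, Krt36 and Ogn move in opposite directions, the change of Ap2a1 is called under Gyk knockdown alone, and Mn1 rises alike in both.

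Over all genes, the effects differed for 1635 of the genes tested, which is 12.5%. Of these, 832 (6.34%) had a difference above 0, meaning a higher value after Pparg knockdown than after Gyk knockdown relative to controls, and 803 (6.12%) had one below 0. The difference was at least 2-fold for 797 genes, and 1517 of the 1635 were measured in both experiments, meaning well above background on all 4 arrays of a group in each. Pparg knockdown by itself changed 4358 genes (33.2%), of which 2317 (17.7%) rose and 2041 (15.6%) fell. Gyk knockdown changed 979 genes (7.46%), of which 536 (4.08%) rose and 443 (3.38%) fell. Across the 11551 genes measured in both, the effects correlated with Pearson r = 0.32 and Spearman rho = 0.36, as a description over genes, which are not independent replicates.

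Of the 1635, 1102 were called in the Pparg experiment only and 201 in the Gyk experiment only. A further 73 were called in both with opposite directions. Another 114 moved the same way in both but by different amounts, larger after Pparg knockdown for 82 and larger after Gyk knockdown for 32. The remaining genes were called in neither single comparison. Of the 559 genes called in both experiments, 486 moved in the same direction, and for 372 of those the difference was not called.

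The slides bear on these counts. With the slide as a block, 3005 differences were called instead of 1635, and with each slide's arrays averaged first, which leaves 2 values per group, 208 were called. Slides 1 and 2 held the Pparg arrays and slides 3 and 4 the Gyk arrays, each with 2 controls and 2 knockdowns. With slide 1 alone for the Pparg experiment 850 were called, with slide 2 alone 857, with slide 4 alone for the Gyk experiment 3184, and with slide 3 alone 1658. The Gyk comparison by itself called no gene with limma on slide averages (1644 at an unadjusted p under 0.05), on slide 3 alone (2231) or on slide 4 alone (4351), and 2147 differences were called without Gyk knockdown arrays 3 and 4. The count of 979 under Gyk knockdown became 307, 286, 256 or 264 without control 1, 2, 3 or 4 and 551 without knockdown 4. For the Pparg comparison, where arrays of a slide deviated together, same-numbered or not, 7359 genes were called with the array number as a block.

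**Figure D2:**
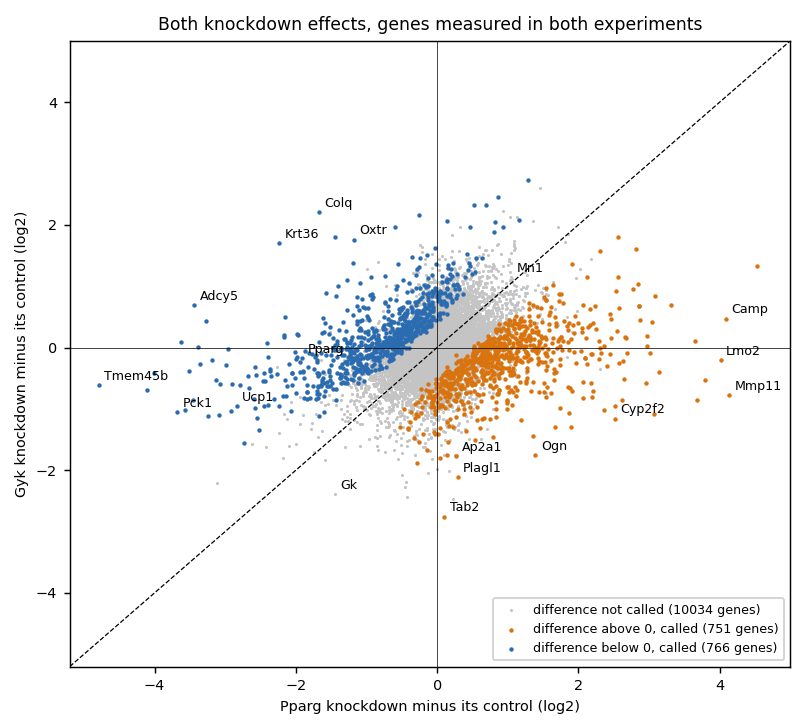
Change under Pparg knockdown (x axis, log2) against change under Gyk knockdown (y axis, log2) for genes measured in both experiments. Blue points have a called difference below 0, orange points one above 0, grey points none, and the dashed line marks equal changes. The cloud is wider along the Pparg axis, with Tmem45b at -4.79 and Mmp11 at 4.14, and Colq and Ogn sit in the quadrants of opposite change.

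The largest differences below 0 were Tmem45b (-4.17), Adcy5 (-4.13), Krt36 (-3.94), Colq (-3.89), Slc6a13 (-3.71), Clec10a (-3.70), Ubd (-3.40), Ffar2 (-3.13) and Clstn3 (-3.08), along with 3 genes at background after Pparg knockdown, Tex19.1, Serpinb9f and Serpinb6b. Tmem45b, which encodes a membrane protein, read 3.31, 3.43, 3.58 and 3.52 on the Pparg controls and -1.37, -1.40, -1.20 and -1.33 on the knockdowns. On the Gyk arrays it read 3.10, 3.13, 3.21 and 3.20, then 2.55, 2.69, 2.34 and 2.60. It fell in both experiments with no overlap, 27.6-fold under Pparg knockdown and 1.53-fold under Gyk knockdown (difference SE 0.14, adjusted p = 1.68e-10).

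Adcy5 is an adenylyl cyclase, an enzyme that makes the cyclic AMP through which adrenergic signals act in fat cells. Its Pparg controls read 1.21, 1.26, 1.72 and 1.88 and its Pparg knockdowns -2.05, -2.28, -1.75 and -1.62. Its Gyk controls read 1.37, 1.0, 1.29 and 1.17 and its Gyk knockdowns 1.89, 1.20, 2.26 and 2.24. The drop was 10.9-fold under Pparg knockdown, whereas the Gyk change of 0.69 was not called, its groups overlapping (difference SE 0.32, adjusted p = 8.79e-07).

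Ubd, a ubiquitin-like protein, read 1.26, 1.08, 1.56 and 1.52 on Pparg controls and -2.18, -2.15, -1.88 and -1.92 on knockdowns. The same gene read 0.24, 0.30, 0.36 and 0.36, then 0.35, 0.28, 0.17 and 0.49 in the Gyk experiment. The Gyk groups lay within each other (change 0.01), and the difference was -3.40 (SE 0.17, adjusted p = 9.97e-09). Clstn3, a calsyntenin whose adipocyte form sits on the lipid droplet, read 5.85, 5.76, 6.07 and 6.15 on Pparg controls and 2.48, 2.31, 2.84 and 2.78 on knockdowns. Its Gyk controls were 4.96, 4.40, 4.99 and 5.02 and its Gyk knockdowns 4.34, 4.62, 4.49 and 4.83. Control array 2 was the low one, and the groups overlapped. The difference for Clstn3 was -3.08 (SE 0.24, adjusted p = 7.27e-07).

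Where a group was not well above background on any array, the fold is a bound, set by the lowest level that counted as well above background on those arrays. Tex19.1 fell at least 11.8-fold and Serpinb9f at least 5.87-fold under Pparg knockdown, and their Gyk changes of -0.42 and -0.69 were not called. Serpinb6b fell at least 2.17-fold under Pparg knockdown and rose by 1.81 under Gyk knockdown.

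The largest differences above 0 were Mmp11 (4.91), Lrrc75b (4.54), Mlana (4.33), Lmo2 (4.22), Cyp2f2 (3.68), Camp (3.62), Slpi (3.54), Pik3ip1 (3.53) and Comp (3.46), along with Aspn, Cd200 and Ptgfr, which were at background in 1 group. Mmp11, a stromal metalloprotease, read 0.56, 0.51, 0.84 and 0.96 on the Pparg controls and 4.74, 4.75, 4.97 and 4.95 on the knockdowns. In the Gyk experiment it read 2.62, 2.07, 2.01 and 2.03, then 0.58, 1.47, 1.45 and 2.12. Pparg knockdown raised it 17.6-fold, and in the Gyk experiment the groups overlapped and the change of -0.78 was not called (difference SE 0.35, adjusted p = 3.32e-07).

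Lmo2, a transcriptional adaptor known from blood formation, read -4.26, -4.20, -4.27 and -4.22 on Pparg controls and -0.12, -0.37, -0.14 and -0.26 on knockdowns. Its Gyk controls were -2.49, -2.89, -2.64 and -2.55 and its Gyk knockdowns -3.36, -3.03, -2.36 and -2.66. The Pparg groups were 16.2-fold apart and the Gyk groups overlapped (difference SE 0.24, adjusted p = 3.98e-08). Camp, the cathelicidin antimicrobial peptide, read -2.24, -2.47, -2.04 and -2.07 on Pparg controls and 1.69, 1.71, 2.01 and 2.12 on knockdowns. It read -1.85, -1.81, -1.66 and -1.83 on Gyk controls and -1.53, -1.14, -1.53 and -1.08 on Gyk knockdowns. All Gyk knockdown arrays were above the controls for Camp, yet the change of 0.47 was not called (adjusted p = 0.0862), and the difference was 3.62 (SE 0.20, adjusted p = 3.34e-08).

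For the genes at background, Aspn rose at least 5.37-fold and Cd200 at least 4.75-fold under Pparg knockdown. Ptgfr, the prostaglandin F receptor, rose 6.15-fold there and fell at least 1.09-fold under Gyk knockdown, where no knockdown array was well above background. With normexp background correction the differences of Serpinb9f, Serpinb6b, Aspn, Cd200 and Ptgfr were not called (adjusted p from 0.0594 to 0.662).

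**Figure D3:**
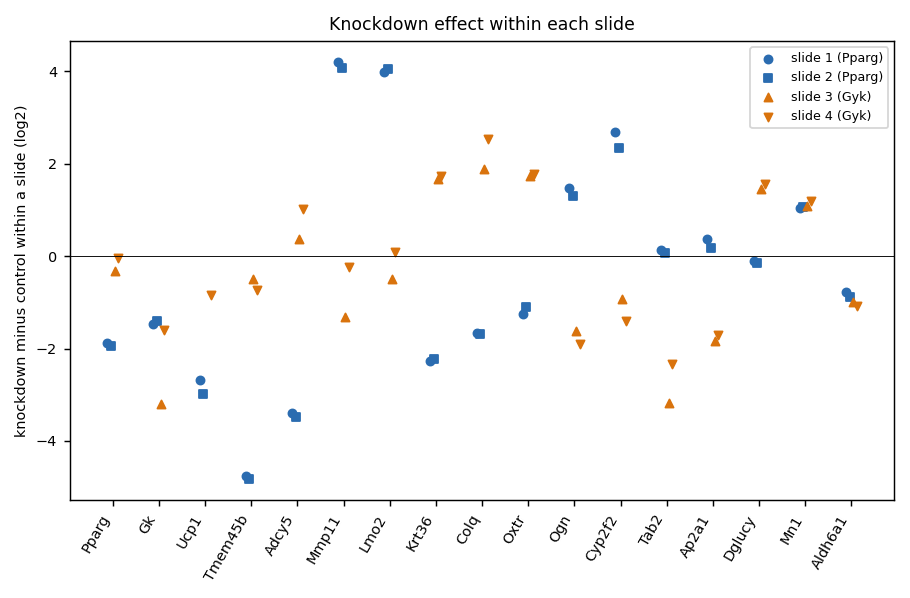
Knockdown minus control (log2) within each of the 4 slides for 17 genes, with blue circles and squares for the slides of the Pparg experiment and orange triangles for those of the Gyk experiment. Both slides of an experiment gave the same sign for most genes shown, Gk changed by -3.19 on slide 3 and -1.60 on slide 4, Lmo2 changed sign between the Gyk slides, and Ucp1 has no point for slide 3, where its controls were left out.

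The promoters of the genes with the largest differences, and of the named genes called under Gyk knockdown alone, were searched for the half-site to which nuclear receptors such as PPARG and RXR bind, AGGTCA, on both strands. They were also searched for the direct repeat in which 2 such half-sites follow on the same strand with 1 base between them. Of 36 genes searched for, 27 had at least 1 RefSeq window (GRCm38.p6, 250 bases before to 50 bases after the transcript start), 38 windows in all. The half-site was in 10 of the 38 windows (26.3%), against 16.3% of all 32851 promoter windows, and the exact direct repeat was in none of the 38 and in 0.0396% of all. Counted by gene, 7 of the 27 (25.9%) held the half-site in at least 1 window, against 4900 of 27025 genes (18.1%), since Ffar2 and Wdr53 each have overlapping windows that share 1 site. A match describes these letters only. The windows below are shown because each holds 2 half-sites, in capitals, and because the genes lie on opposite sides of the comparison: Serpinb9f (chr13:33323827-33324126, plus strand) fell and Ptgfr (chr3:151837479-151837778, minus strand) rose under Pparg knockdown. Both are written 5′ to 3′ along the gene.
Serpinb9f: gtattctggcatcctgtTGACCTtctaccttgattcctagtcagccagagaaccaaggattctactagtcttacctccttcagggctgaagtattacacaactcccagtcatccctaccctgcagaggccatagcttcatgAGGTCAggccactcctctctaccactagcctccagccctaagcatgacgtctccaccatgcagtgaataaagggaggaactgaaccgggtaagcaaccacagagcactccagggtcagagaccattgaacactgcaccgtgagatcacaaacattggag
Ptgfr: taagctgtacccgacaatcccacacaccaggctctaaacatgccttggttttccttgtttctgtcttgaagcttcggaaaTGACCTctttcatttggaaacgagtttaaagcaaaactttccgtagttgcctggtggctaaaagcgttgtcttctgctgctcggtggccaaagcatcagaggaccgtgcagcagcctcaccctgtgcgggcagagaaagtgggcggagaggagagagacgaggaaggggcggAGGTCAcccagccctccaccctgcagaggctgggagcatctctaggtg

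The 73 genes called in opposite directions split into 31 that fell under Pparg knockdown and rose under Gyk knockdown and 42 that did the reverse. Krt36, Colq, Serpinb6b, Oxtr, Galnt18, Masp2, Uroc1 and Tdrp had the largest differences in the first set. Krt36, a hair keratin, read 0.23, 0.21, 0.53 and 0.53 on Pparg controls and -2.21, -1.87, -1.81 and -1.57 on knockdowns. Its Gyk controls read 0.36, 0.22, 0.22 and 0.41 and its Gyk knockdowns 1.88, 2.06, 2.14 and 1.95. No groups overlapped. Krt36 changed by -2.24 and 1.70, and the difference of -3.94 (SE 0.19, adjusted p = 9.03e-09) was -4.15 by the gene's other probe.

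Colq, the collagen tail that anchors acetylcholinesterase, read -1.92, -1.94, -1.73 and -1.73 and then -3.50, -3.68, -3.43 and -3.42 in the Pparg experiment. It read -0.65, -1.17, -1.13 and -0.96 on Gyk controls and 0.74, 1.20, 1.56 and 1.43 on Gyk knockdowns. The fall was 3.2-fold and the rise 4.62-fold, with separate groups in both (difference SE 0.23, adjusted p = 4.54e-08). Oxtr, the oxytocin receptor, read -3.97, -4.16, -3.98 and -3.63 on Pparg controls and -5.58, -5.06, -4.87 and -4.96 on knockdowns, of which 3 of 4 arrays were well above background. On the Gyk arrays Oxtr went from -2.67, -2.58, -2.49 and -2.59 to -1.0, -0.78, -0.80 and -0.74. Its groups were separate in both experiments, and the difference was -2.94 (SE 0.21, adjusted p = 3.47e-07).

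Masp2, a serine protease of the lectin complement pathway, showed a small fall against a large rise. It read -2.99, -2.73, -2.30 and -2.41, then -3.41, -3.47, -2.95 and -3.01 in the Pparg experiment. It read -3.37, -3.18, -3.05 and -3.29, then -1.44, -1.24, -1.27 and -1.07 in the Gyk experiment. The changes were -0.60 (adjusted p = 0.035) and 1.97 (adjusted p = 0.00037), and the difference was -2.57 (SE 0.23, adjusted p = 3.2e-06). The Pparg groups of Masp2 overlapped between control array 1 and knockdown array 3, which lay on different slides, and the Gyk groups did not. Galnt18, a glycosyltransferase, Uroc1, the urocanase of histidine breakdown, and Tdrp had differences of -2.65, -2.46 and -2.41. The other probe of Tdrp gave a Gyk change of 0.16 against 1.0 and a difference of -1.70.

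In the reverse set, Mlana, Cyp2f2, Ptgfr, Comp, Ogn, Gm10639, Lrrc17 and Garnl3 differed most. Ogn, which encodes the matrix proteoglycan osteoglycin, read 1.38, 1.33, 1.50 and 1.50 on Pparg controls and 2.85, 2.83, 2.78 and 2.83 on knockdowns. It read 2.22, 2.08, 1.96 and 2.18 on Gyk controls and 0.60, 0.46, 0.19 and 0.16 on Gyk knockdowns. Both sets of arrays were separate, with changes of 1.39 and -1.76 and a difference of 3.15 (SE 0.15, adjusted p = 9.03e-09).

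Cyp2f2, a cytochrome P450, read -1.59, -1.47, -1.21 and -1.05, then 1.19, 1.14, 1.21 and 1.22 in the Pparg experiment. It read -1.02, -0.60, -0.48 and -0.52, then -1.84, -1.63, -2.09 and -1.71 in the Gyk experiment. It rose 5.73-fold and fell 2.23-fold without overlap (difference SE 0.21, adjusted p = 3.66e-08). Garnl3, which resembles GTPase-activating proteins, read 0.47, 0.35, 0.32 and 0.54, then 2.60, 2.52, 2.36 and 2.47 under Pparg knockdown. On the Gyk arrays it went from 0.95, 0.90, 0.90 and 0.85 to -0.11, 0.13, 0.04 and 0.26. The groups of Garnl3 were separate in both experiments, and its difference was 2.88 (SE 0.14, adjusted p = 9.03e-09).

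S100b, a calcium-binding protein that brown adipocytes secrete and that also marks Schwann cells, belonged to this set as well. It read 1.54, 1.34, 1.75 and 1.80 on Pparg controls and 2.11, 2.05, 2.29 and 2.15 on knockdowns. In the Gyk experiment S100b read 1.33, 1.18, 1.25 and 1.10 and then -0.48, -0.34, -0.19 and -0.14. It rose by 0.54 and fell by 1.50, a difference of 2.04 (SE 0.17, adjusted p = 1.16e-06), with separate groups in both. Sox10, a Schwann cell marker, was well above background on no Pparg array, on 4 Gyk controls and on 1 Gyk knockdown. The part of such cells in the S100b result was not tested.

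Of the 420 genes called only in the Gyk experiment, 201 had a called difference. With the slide as a block, 63 of these 201 were also called under Pparg knockdown, so a missing Pparg call here is not evidence that Pparg knockdown left a gene as it was. Those whose Pparg change was under 0.5 in size were led, among genes that fell, by Tab2, Plagl1, Dennd6a, Acox2, Ap2a1 and Sp4. Ap2a1, a subunit of the clathrin adaptor AP-2, read 2.37, 2.74, 2.77 and 3.16 on Pparg controls and 2.92, 2.92, 3.13 and 3.17 on knockdowns. It read 3.82, 3.69, 3.79 and 3.64 on Gyk controls and 1.97, 1.86, 2.02 and 2.0 on Gyk knockdowns. The Pparg groups overlapped, the Gyk groups were 3.43-fold apart, and the difference was 2.05 (SE 0.19, adjusted p = 5.41e-06). Acox2, a peroxisomal oxidase of branched-chain fatty acids and bile acid intermediates, read -3.23, -3.42, -2.96 and -2.72, then -3.11, -3.22, -2.89 and -2.97 on the Pparg arrays. On the Gyk arrays it went from -1.22, -0.98, -0.99 and -0.92 to -2.98, -2.89, -2.77 and -2.70. It fell 3.5-fold under Gyk knockdown against a Pparg change of 0.04 (difference 1.84, SE 0.20, adjusted p = 1.82e-05), although normexp correction gave 0.62 (adjusted p = 0.42).

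Plagl1, a zinc finger transcription factor from an imprinted locus, read 0.56, 0.03, 0.10 and 0.03, then 0.53, 0.67, 0.41 and 0.27 in the Pparg experiment. It read 0.83, 0.56, 0.65 and 0.56, then -0.95, -1.40, -2.08 and -1.44 in the Gyk experiment. Its change was 0.29 in the first, with overlap, and -2.12 in the second, without (difference 2.41, SE 0.28, adjusted p = 3.37e-05). The gene's 3 other probes gave differences from -0.08 to 2.53, so the probes disagreed. For Dennd6a the other probe gave -0.27 against 1.59.

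Tab2, an adaptor of the kinase TAK1 in NF-kappaB signalling, had the largest Gyk change among the named genes but an unstable call. Its Pparg controls read -0.01, 0.21, -1.78 and -1.42 and its Pparg knockdowns 0.08, 0.38, -1.76 and -1.31. The level of Tab2 thus followed the slide in that experiment, with a change of 0.10. Its Gyk controls read 0.24, 0.39, 0.34 and 0.38 and its Gyk knockdowns -1.75, -3.97, -2.06 and -1.91. The difference of 2.86 (SE 0.81, adjusted p = 0.0313) was lost when any of Pparg control 3 or 4, Pparg knockdown 1 or 2, or Gyk control 1, 2, 3 or 4 was left out (adjusted p up to 0.291 over all alternatives).

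Among the genes that rose under Gyk knockdown and were not called under Pparg knockdown, Got1l1, Ccdc141, Krt13, Wdr53, Zmat3 and Dglucy led. Zmat3, a zinc finger protein induced by p53, read -1.0, -1.20, -1.56 and -1.63, then -0.68, -0.71, -1.26 and -1.08 in the Pparg experiment. It read -0.76, -0.94, -1.09 and -0.96, then 0.51, 0.46, 0.59 and 0.77 in the Gyk experiment. The Pparg arrays overlapped across slides and the Gyk arrays did not (changes 0.42 and 1.52, difference -1.10, SE 0.23, adjusted p = 0.0045). Within its slides Zmat3 changed by 0.40 and 0.43 under Pparg knockdown, and with the slide as a block that change was called by limma (0.42, adjusted p = 0.000823). The same held for Krt13 (0.47, adjusted p = 0.00956), Dennd6a (-0.29, 0.00817) and Got1l1 (-0.26, 0.0483). Dglucy, a mitochondrial D-glutamate cyclase, read 1.09, 1.21, 1.13 and 1.22, then 1.10, 0.98, 0.98 and 1.05 on Pparg arrays. It went from 1.20, 0.89, 1.07 and 1.06 to 2.42, 2.57, 2.48 and 2.77 on Gyk arrays. The rise in Dglucy was 2.83-fold in the Gyk experiment, and the difference was -1.64 (SE 0.14, adjusted p = 1.51e-06).

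Some genes moved alike. For 78 genes called in both experiments in the same direction, 39 lower and 39 higher, the 95% interval of the difference lay within 0.5 either side of 0. Mn1, a transcriptional coactivator, read -1.68, -1.79, -1.68 and -1.63 on Pparg controls and -0.60, -0.81, -0.59 and -0.59 on knockdowns. It read -1.50, -1.84, -1.70 and -2.04 on Gyk controls and -0.56, -0.59, -0.83 and -0.51 on Gyk knockdowns. It rose by 1.05 and 1.15, a difference of -0.10 with a 95% interval of -0.45 to 0.26. Adam19, B4galt4, Evc, Tpbg and Orai2 were the other risers with the largest mean change. Aldh6a1, a mitochondrial enzyme of valine and thymine breakdown, led the genes that fell alike. Its Pparg controls read 3.49, 3.57, 3.62 and 3.63 and its Pparg knockdowns 2.74, 2.76, 2.72 and 2.74. Its Gyk controls read 4.20, 4.0, 4.14 and 4.25 and its Gyk knockdowns 3.04, 3.18, 2.98 and 3.26. The falls of 0.84 and 1.03 log2 units differed by 0.20, with a 95% interval of -0.07 to 0.46. Nol4l, Usp38, Fam136a and Myo19 were also among these genes.

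The remaining results take groups of genes by function, as counts of members called and medians over members tested, beside a median difference of -0.02 over all genes. In each group the members named were taken from the 3 with the largest called difference among members measured in both experiments. A larger difference of another member can therefore go unnamed. Any other member named was picked, after its values were seen, to show a contrast within the group. Over all genes, 12.5% had a called difference, 33.2% were called under Pparg knockdown and 7.46% under Gyk knockdown. The share of members with a called difference was near or below that background for cholesterol synthesis (14.3%), creatine and calcium cycling (14.3%), smooth muscle (14.3%), collagens and matrix (16.7%), the circadian clock (12.5%), branched-chain amino acid breakdown (10.5%), the proteasome (9.52%) and the mitochondrial ribosome (9.09%). The counts also rest on array spread within slides. With each slide's arrays averaged first, 12 of the 37 groups had any called difference, against 35. None was called in fatty acid oxidation, the thermogenic genes, peroxisomal genes, de novo lipogenesis, triglyceride synthesis, fatty acid uptake, insulin signalling, adrenergic signalling, proliferation or the macrophage markers. The lipid droplet genes had 3 differences below 0, the secreted factors 2, and lipolysis, glycerol supply, the adipogenic factors and glycolysis 1 each. Above 0, inflammatory and antioxidant genes had 2 each and the matrix proteases, preadipocyte genes and collagens 1 each.

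The lipid droplet group had the most negative median difference. Of 12 lipid droplet genes, 9 fell under Pparg knockdown and 2 under Gyk knockdown, and the difference was below 0 for 7 and above 0 for none (median -0.92). Cidec, which fuses droplets, differed by -2.01. Fitm1, which buds them from the endoplasmic reticulum and was at background after Pparg knockdown, was at least 1.54-fold lower after Pparg than after Gyk knockdown. Plin5, which ties droplets to mitochondria, differed by -1.89. Plin5 read 4.60, 4.52, 4.70 and 4.67 on Pparg controls and 2.16, 2.07, 2.27 and 2.23 on knockdowns. It read 3.64, 3.56, 3.52 and 3.58 on Gyk controls and 2.84, 2.96, 3.12 and 3.19 on Gyk knockdowns. All groups of Plin5 were separate, with changes of -2.44 and -0.55 (difference SE 0.13, adjusted p = 3.13e-07).

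For the 11 genes that supply glycerol and glycerol 3-phosphate, 8 fell under Pparg knockdown and 1, Gk itself, under Gyk knockdown, and 3 had a difference below 0 (median -0.77). These were Pck1, the key enzyme of glyceroneogenesis, Gpd1, which makes glycerol 3-phosphate from glycolysis, at -1.55, and Aqp7, the glycerol channel of fat cells, at -0.77. Pck1 read 3.62, 3.71, 3.97 and 3.92 on Pparg controls and -0.09, 0.05, 0.32 and 0.21 on knockdowns. It read 4.07, 3.83, 3.75 and 3.63 on Gyk controls and 3.26, 3.33, 2.08 and 2.38 on Gyk knockdowns. Pck1 fell 12.8-fold in the first, its Gyk change of -1.06 was not called although no arrays overlapped (adjusted p = 0.0675), and the difference was -2.62 (SE 0.33, adjusted p = 8.11e-05). Gk had the highest difference of the group, above 0 but not called.

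Of 12 lipolysis genes, 8 fell under Pparg knockdown and none was called under Gyk knockdown, with 6 differences below 0 (median -0.63). Mgll, the monoglyceride lipase that releases the last fatty acid and free glycerol, read 4.67, 4.70, 4.78 and 4.85 on Pparg controls and 2.75, 2.72, 2.86 and 2.74 on knockdowns. It read 4.74, 4.30, 4.86 and 4.83, then 4.68, 4.90, 4.97 and 5.07 on Gyk arrays. The Gyk groups overlapped (change 0.22), and the difference was -2.21 (SE 0.17, adjusted p = 9.2e-07). Lipe, the hormone-sensitive lipase, differed by -1.91, and Plin1, the droplet coat that holds lipases back, by -1.47. Lipe read -0.64 on Gyk knockdown array 3 against 0.72 to 0.89 on the other arrays of that group. Without slide 1, and without slide 2, the difference of Lipe was not called. Pnpla2, the triglyceride lipase that starts lipolysis, changed by -1.17 and -1.18, neither called, with a difference of 0.00 whose 95% interval ran from -1.65 to 1.66.

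Among secreted factors, 6 of 14 had a difference below 0 and 1 above (median -0.63). Nnat, named among adipokines in the list although it is a membrane proteolipid, differed by -2.92, complement factor D (Cfd) by -1.93 and adiponectin (Adipoq) by -1.41. The changes of Cfd and Adipoq under Gyk knockdown were -0.07 and -0.04. Resistin (Retn) fell by 1.74 and by 1.70 log2 units, and retinol-binding protein Rbp4 by 1.32 and by 1.08, so these adipokines fell in both experiments without a called difference (intervals -0.61 to 0.53 and -0.53 to 0.05). Agt, angiotensinogen, was the member above 0, at 1.33.

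Triglyceride synthesis had 5 of 15 differences below 0 and 1 above (median -0.47), with the acyltransferase Gpat3 at -1.50, the lipin Lpin3 at 1.49 and Dgat1, which adds the last fatty acid, at -1.06. De novo lipogenesis had 5 of 16 below 0 and 1 above (median -0.59), among them the transcription factor Mlxipl at -1.14, fatty acid synthase Fasn at -1.07 and ATP citrate lyase Acly at -1.06. The other probe of Mlxipl gave -0.24, and its difference was not called with the probes averaged, while that of Acly gave -2.14. Of 15 genes of fatty acid uptake and activation, 4 were below 0 (median -0.13), with Fabp4, the fatty acid carrier of fat cells, at -1.13, the acyl-CoA synthetase Acsl1 at -1.12, and Lipe, also a member of the lipolysis group. Fabp3, the heart-type fatty acid binding protein, fell by 1.68 and 1.46 without a called difference. Cholesterol synthesis had 2 of 21 above 0 and 1 below (median 0.14), with Srebf2 at 0.70, Idi1 at 0.64 and Hmgcs1 at -0.56.

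**Figure D4:**
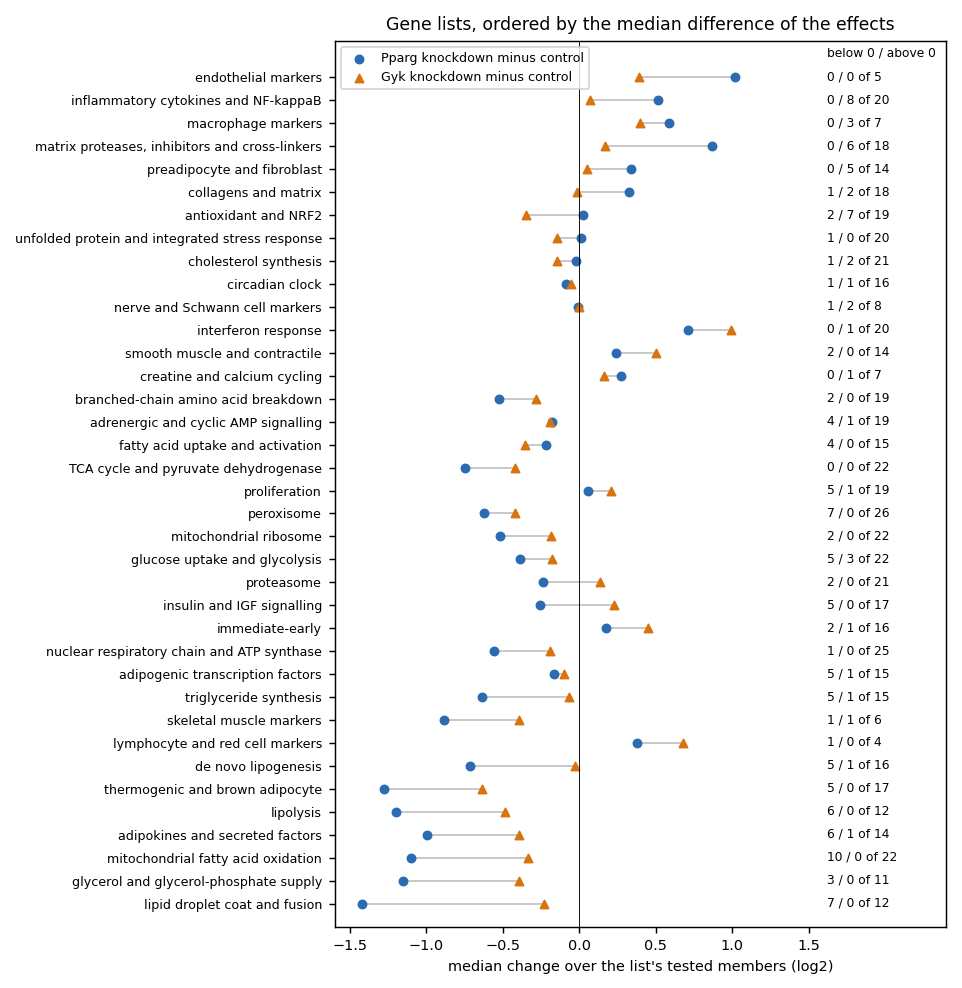
Median change over the tested members of each of 37 gene lists, as blue circles for Pparg knockdown and orange triangles for Gyk knockdown (log2), ordered by the median difference, with the number of members whose difference was called below 0 and above 0. The lipid droplet list lies at the bottom with a median difference of -0.92, and the TCA cycle list has medians of -0.75 and -0.42 with no called difference.

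Of 17 thermogenic and brown adipocyte genes, 13 fell under Pparg knockdown and 6 under Gyk knockdown, and 5 had a difference below 0 (median -0.62). Besides Ucp1 these included Otop1, a proton channel of brown fat, at -2.13, and Dio2, the deiodinase that activates thyroid hormone, which was at background after Pparg knockdown and at least 2.27-fold lower there than after Gyk knockdown. Otop1 read -1.93 on Gyk knockdown array 4 against -0.24 to -0.05 on the other arrays of that group. Without slide 1, and without slide 2, the difference of Otop1 was not called. Prdm16, a coregulator of brown fat identity, differed by -1.46 and was not called under Gyk knockdown. Elovl3, the elongase typical of brown fat, was not well above background on any knockdown array of either experiment, so its fitted difference of -0.05 compares 2 values at background. Ppargc1b and Cox8b differed by 0.08 and -0.23, not called.

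Of 22 genes of mitochondrial fatty acid oxidation, 21 fell under Pparg knockdown and 5 under Gyk knockdown, and 10 differences were below 0 (median -0.68). Hadh, Etfb and Decr1, a dehydrogenase, an electron transfer flavoprotein and a reductase for unsaturated fatty acids, differed by -1.20, -1.14 and -1.09, whereas Acadl, the long-chain acyl-CoA dehydrogenase, fell by 1.37 and 1.35 log2 units with a difference of -0.02. Of 22 genes of the TCA cycle and pyruvate dehydrogenase, 19 fell under Pparg knockdown and 5 under Gyk knockdown, and none had a called difference (6 had a 95% interval without 0, lowest adjusted p = 0.0575 by limma).

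Within the TCA group, 20 of 22 differences were below 0 (median -0.24), from -0.68 for Pdhx to 0.32 for Idh2. Idh3a, a subunit of isocitrate dehydrogenase, fell by 1.28 and 1.14, and Dld, the dihydrolipoamide dehydrogenase shared by several complexes, by 1.02 and 0.97. Their differences had intervals of -0.67 to 0.38 and -0.59 to 0.49. The absence of calls depended on 2 arrays: without Gyk knockdown arrays 3 and 4, 8 of the 22 differences were called below 0.

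Nuclear genes of the respiratory chain and ATP synthase had 1 of 25 differences called, Atp5c1 at -0.68 (median -0.33, with 16 fallen under Pparg knockdown and 2 under Gyk knockdown). The mitochondrial ribosome had 2 of 22 below 0, Mrpl12 at -0.66 and Mrpl30 at -0.50 (median -0.26, with 16 and 0 fallen). Peroxisomal genes had 7 of 26 below 0 (median -0.26), with Hsd17b4 at -1.47, the membrane biogenesis factor Pex16 at -1.34 and the sterol carrier Scp2 at -1.04, and 18 and 2 of them fell in the single comparisons. Branched-chain amino acid breakdown had 2 of 19 below 0, Bckdhb at -0.87 and Hibch at -0.84 (median -0.05).

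**Figure D5:**
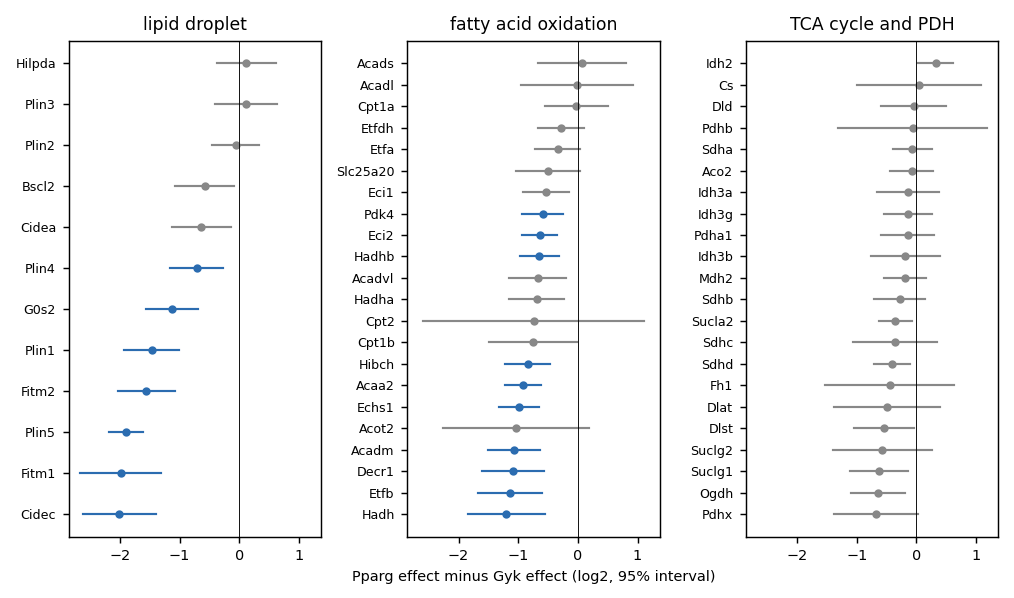
Difference of the effects, Pparg minus Gyk, with its 95% interval (log2) for each tested gene of 3 lists, blue where called and grey where not. The 12 lipid droplet genes reach -2.01, 10 of the 22 fatty acid oxidation genes are blue, and the 22 TCA cycle genes are grey and run from -0.68 to 0.32.

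Glucose uptake and glycolysis was mixed, with 5 of 22 differences below 0 and 3 above (median -0.29). Glycogen synthase 2 (Gys2), the liver form that fat cells also hold, differed by -2.54, hexokinase 2 (Hk2) by -1.81 and the basal glucose transporter Slc2a1 by 0.86. Gys2 fell 11.8-fold and 2.04-fold. Without slide 1, and without slide 2, the difference of Hk2 was not called. Insulin and IGF signalling had 5 of 17 below 0 and none above (median -0.31), among them Cavin1 at -1.05 and Irs1 at -0.77. Adrenergic and cyclic AMP signalling had 4 of 19 below 0 and 1 above (median -0.09), including the kinase Sik2 at -1.45, the regulatory subunit Prkar2b at -0.97, the beta-3 receptor Adrb3 at -0.74 and, above 0, the soluble cyclase Adcy10 at 0.76. Creatine and calcium cycling had 1 of 7 called, Ckb at 0.75 (median -0.04).

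Of 15 adipogenic transcription factors, 5 had a difference below 0 and 1 above (median -0.36). Besides Pparg these were led by Nr1h3, the oxysterol receptor LXR alpha, at -1.36 and Rxrg, an RXR partner of PPARG, at -1.35, while Cebpd, an early factor of fat cell formation, was above 0 at 1.33. Rxrg fell under both knockdowns, by 2.14 and 0.78. Klf5 was called only in the Gyk experiment, where it rose by 1.28.

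Preadipocyte and fibroblast genes had 5 of 14 differences above 0 and none below (median 0.47), with the growth factor receptors Pdgfra at 1.15 and Pdgfrb at 1.06 and the surface antigen Ly6a at 1.01. The highest difference of this group was that of Dpt, at 2.89. Matrix proteases, inhibitors and cross-linkers had 6 of 18 above 0 and none below (median 0.73), and 15 of the 18 rose under Pparg knockdown against 2 under Gyk knockdown. Besides Mmp11, the gelatinase Mmp2 differed by 1.90, and Lox, the collagen cross-linking oxidase, rose by 1.96 and by 1.13 without a called difference. The membrane protease Mmp14 differed by 2.23, but Gyk knockdown array 2 read -4.46 against -1.93 to -1.46 on the other 3. The call was lost in 17 of 34 alternatives, among them leaving out any 1 of the Pparg arrays or of the Gyk controls (adjusted p up to 0.261), and without Gyk knockdown array 2 the difference was 1.53. Collagens and matrix had 2 of 18 above 0 and 1 below (median 0.44), with elastin (Eln) at 2.51, Col4a1 at 0.79 and Col5a3 at -0.70. Smooth muscle and contractile genes had 2 of 14 below 0 (median -0.04), Vcl at -0.54 and Tagln at -0.91. Tagln was called in the Gyk experiment alone, where it rose.

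Inflammatory genes had 8 of 20 differences above 0 and none below (median 0.80), and 10 of the 20 rose under Pparg knockdown against none under Gyk knockdown. Tlr2, a receptor for bacterial lipoproteins, read -2.31, -2.28, -2.12 and -2.16 on Pparg controls and -0.20, -0.30, -0.19 and -0.06 on knockdowns. On the Gyk arrays it read -1.84, -2.30, -1.81 and -1.57, then -2.12, -1.93, -1.93 and -1.74. The Gyk groups overlapped, and the difference was 2.08 (SE 0.19, adjusted p = 4.87e-06). Lipocalin 2 (Lcn2), an iron-carrier-binding acute phase protein, differed by 1.60. Saa2, a serum amyloid, rose at least 6.32-fold under Pparg knockdown and was well above background on no other arrays. The 8 above 0 included Tab2, with the limits given for it. They also included Saa2, whose difference was not measured because its Gyk values were at background. Of 7 macrophage markers tested, Cd14, Cd74 and Gpnmb were above 0 (median 0.77), at 0.77, 1.75 and 2.21, and the part of macrophages in the inflammatory group was not tested. The 5 macrophage markers of the opening, of which Csf1r was well above background on all 16 arrays, Adgre1 on 12, Ptprc on 5 and Lyz2 and Mrc1 on none, summed to 0.744 to 0.880 in Pparg controls, 0.876 to 1.09 in Pparg knockdowns, 0.497 to 0.910 in Gyk controls and 0.732 to 1.11 in Gyk knockdowns. Without slide 4 the difference of Cd14 was not called.

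Of 20 interferon response genes tested, 17 rose under Pparg knockdown (median 0.71) and 1, Ifih1, was called under Gyk knockdown although the Gyk median was higher (0.99). The difference was called for 1 gene, Ifit2 at 0.87, and its median was -0.01. The differences ran from -1.52 for Usp18 to 0.87, 3 of the 95% intervals lay apart from 0, and their bounds reached -2.85 and 2.79, so differences of several-fold were not excluded for some genes. The call of Ifit2 was lost without any 1 of Pparg control 3 or 4, Pparg knockdown 1 or 2, Gyk control 1, 2 or 4, or Gyk knockdown 3 or 4, and its adjusted p reached 0.696 over the alternatives.

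Antioxidant and NRF2 target genes had 7 of 19 differences above 0 and 2 below (median 0.32). Gpx3, the secreted glutathione peroxidase, read 1.06, 1.21, 1.36 and 1.30 on Pparg controls and 2.95, 3.09, 3.25 and 3.27 on knockdowns. It read 3.70, 3.54, 3.51 and 3.58 on Gyk controls and 3.34, 1.59, 3.30 and 3.29 on Gyk knockdowns. Array 2 of the Gyk knockdowns was far below the rest, and the difference was 2.61 (SE 0.41, adjusted p = 0.000575) with it and 2.18 without it. Hmox1, heme oxygenase 1, read 3.65, 3.70, 3.85 and 3.66, then 4.02, 3.89, 4.19 and 4.25 on the Pparg arrays. On the Gyk arrays it went from 5.03, 4.79, 4.79 and 4.94 to 4.09, 4.19, 3.55 and 3.73. It rose by 0.37 and fell by 1.0 with separate groups in both (difference 1.37, SE 0.20, adjusted p = 0.000237). Gsta3, a glutathione transferase, also rose by 0.84 and fell by 1.0, while the mitochondrial enzymes Prdx3 and Sod2 had differences of -1.0 and -0.64.

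Proliferation genes had 5 of 19 differences below 0 and 1 above (median -0.25). Rrm2, a ribonucleotide reductase subunit, fell under Pparg knockdown (difference -0.98), as did cyclin E1 (Ccne1, -0.92), and survivin (Birc5) rose under Gyk knockdown (difference -0.71). Ccne1 was also higher on every Gyk knockdown array, at 2.73 to 3.24, than on the Gyk controls, at 2.34 to 2.48. Cdkn1a, the cell cycle inhibitor p21, rose in both, by 0.53 and 1.24. The mitotic markers Mki67, Top2a and Plk1 were called in neither experiment.

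Immediate-early genes had 2 of 16 below 0, Atf3 and the orphan receptor Nr4a2 at -1.03, and 1 above, Fosl2 at 0.83, which was -0.02 when a gene's probes were averaged (median -0.31). Atf3, a stress-induced transcription factor, read 0.17, -0.19, 0.24 and 0.15 on Pparg controls and -0.46, -0.54, -0.39 and -0.20 on knockdowns. It read -0.24, -0.25, -0.17 and -0.29, then 1.21, 1.32, 0.32 and 0.64 on Gyk arrays. Atf3 fell by 0.49 and rose by 1.10 with separate groups in both, a difference of -1.59 (SE 0.26, adjusted p = 0.000752). It was also the only gene called among 20 of the unfolded protein and integrated stress response (median 0.20). The proteasome had 2 of 21 below 0, Psmc1 at -0.62 and Psmb6 at -0.51 (median -0.31). The other probe of Psmc1 gave 0.54, and its call was lost in 20 of 34 alternatives, with differences up to -0.04. The circadian clock had Cry2 below 0 at -0.59 and Nr1d2 above 0 at 0.57, of 16 (median 0.07).

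Marker lists of other cell types were short after the filter. Of 5 endothelial markers tested none had a called difference (median 0.82), with a lowest adjusted p of 0.0852 by limma and 2 intervals without 0. Of 6 skeletal muscle markers 1 was below 0, Acta1 at -1.85, and 1 above, Mb at 1.32 (median -0.49). Of 4 lymphocyte and red cell markers 1 was below 0, Hba-a2 at -1.63, well above background on 1 of 4 Gyk controls (median -0.51). Of 8 nerve and Schwann cell markers 2 were above 0, S100b and Ngfr (1.21), and 1 below, Mbp at -0.73 (median 0.07).

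Some genes were seen in one experiment only. Well above background in a Pparg group and on no Gyk array were 252 genes, of which 113 changed under Pparg knockdown. Their Gyk change lies between background values and they passed the filter through a Pparg group alone, so the difference between the effects was not measured for them. The fit still called a difference for 43 of them, which count among the 1635. The 4 largest called changes were rises from background, at least 19.3-fold for Ccdc13, at least 12.2-fold for Adamtsl2, at least 6.32-fold for Saa2 and at least 5.99-fold for Plxnb1. The reverse held for 24 genes, of which 2 changed under Gyk knockdown, D630039A03Rik by 1.98 and Slc29a4 by 1.80, the latter well above background on 1 of 4 controls.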

How the data were processed

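Of the arrays in the series, 16 culture arrays on 4 slides were used here and the other 16 were not. The authors deposited scanner output from Agilent Feature Extraction (10.7.3.1, per the file headers), with 1 background-corrected intensity per spot and no normalization between arrays. Their value table held the same intensities as the scanner files. The series is a 1-colour Cy3 design with 200 ng of total RNA labelled, per the labels' protocols.

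Each level is log2 of the processed signal minus log2 of the array's 75th percentile. Control spots (1377 per array) and outlier-flagged spots (111 to 247 per array) were left out. Spots of 1 probe were averaged, and a gene took the probe with the highest mean over the 16 arrays. A gene was tested where it was well above background on at least 4 of the 16 arrays, of any group. Names came from matching each probe's transcript identifier in the scanner output to RefSeq transcripts (GRCm38.p6): 27234 of 39429 probes (69.1%) named 20659 genes. The difference was a contrast of 4 group means over the 16 arrays in limma (version 3.58.1, under R version 4.3.3), with moderated variances and Benjamini-Hochberg adjustment over all genes, and each single comparison on its own 8 arrays. The fit was tested on simulated data with independent noise on each array and no slide effect. That test therefore does not cover the dependence on slides given above.

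The genes named were the 12 largest differences in each direction, the 8 largest in each orientation among genes called in opposite directions, the 6 largest changes in each direction called under Gyk knockdown only, the 3 largest per list, the 6 that moved most alike in each direction, the 4 largest seen in 1 experiment only, and Pparg, Gk and Ucp1. A few genes that this rule names are not reported here. The comparison, members and all 37 lists were chosen with earlier results of these data known. Same-numbered arrays share a number in the labels and also a slide. In the Pparg experiment their deviations correlated at 0.67 to 0.72. Arrays of the same slide and another number correlated at 0.66 to 0.69, and arrays of different slides at -0.75 to -0.65. The deviations thus went with the slide, and a shared number added little. The scanner files lack a mean signal, so the normexp alternative used median signals. The number of arrays limits the precision.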

Additional observations from a re-analysis of the deposited data

Results flagged for a closer look

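In groups of 4 arrays, a sample stood apart from the others where its gap to the nearest was above Dixon's 95% critical value, as a share of the group's range. Of 131 groups screened, over the 33 genes whose arrays are printed, 8 did, and chance gives about 1 in 20.

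Clstn3 was low on Gyk control 2, at 4.40 against 4.96 to 5.02 on the others. Mmp11 was high on Gyk control 1, at 2.62 against 2.01 to 2.07. Tab2 was low on Gyk knockdown 2, at -3.97 against -2.06 to -1.75. Plagl1 was high on Pparg control 1, at 0.56 against 0.03 to 0.10. Pparg was high on Gyk control 1, at 6.49 against 6.31 to 6.32, and Gk was low on Gyk control 3, at 0.22 against 0.38 to 0.40. Gpx3 was low on Gyk knockdown 2, at 1.59 against 3.29 to 3.34, and without that array its difference was 2.18 (limma adjusted p = 3.81e-07). Mn1 was low on Pparg knockdown 2, at -0.81 against -0.60 to -0.59.

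Probes with no gene symbol were outside the main measurement. Of 5194 such probes tested, 111 had a called difference, 58 above 0 and 53 below, and the largest was 4.61 on the log2 scale.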

How the results depend on the processing

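Counts are of genes with a called difference, then under Pparg and under Gyk knockdown, against 1635, 4358 and 979. Normexp background correction gave 866, 2886 and 215 and moved the median of all differences from -0.02 to -0.13. Without a filter 458 were called under Gyk knockdown (median of all differences -0.21). The slide block gave 3005 and 7589, and slide means 208, 968 and 0. One fit of all arrays gave 2476 under Gyk knockdown. Leaving out slide 1 gave 857 differences, slide 2 850 and slide 3 3184, and without slide 3 or slide 4 the Gyk count was 0. With the replicate number as a block, 2162 differences, 7359 Pparg calls and 69 Gyk calls were made, but same-numbered Gyk arrays correlated at only 0.06 to 0.14, so the numbers were not taken to pair them. Leaving out 1 array gave 1337 to 2094, 3678 to 4358 and 256 to 1263.

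The difference for Ucp1 with slide means was -1.88 (limma adjusted p = 0.0592). That of Gk was called with array weights (1.27, adjusted p = 0.00983) and without Gyk knockdown arrays 3 and 4 (1.71, 3.29e-05). It was also called without slide 4 (1.75, 0.000319), but not without slide 3 (0.15, 0.591) or with slide means (0.95, 0.623). Without 1 array it was 0.63 to 1.24. Reversed signs were -0.083 for Sp4 and -0.19 for Ngfr with normexp, and -0.025 for Fosl2 with a gene's probes averaged. Of 136 named genes called, 90 kept their call with normexp, 56 with slide means and 136 with either block. Leaving out 1 array cost Tab2, Adcy10, Hmgcs1, Col4a1, Fosl2, Cavin1, Ifit2, Mmp14, Mrpl30, Hsd17b4, Psmc1, Psmb6 or Vcl its call, depending on the array. The causes were not tested. Signal near background limits the genes given as bounds.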
